A study of Mus musculus with 16 samples.

Results

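The genes of 10 transcription factors of sensory neuron identity were followed through the mRNA of mouse dorsal root ganglia (DRGs): Isl1, Pou4f1, Pou4f2, Pou4f3, Prrxl1 (official symbol Drgx), Runx1, Runx3, Etv1, Maf and Shox2. They were taken by their symbols, all 10 matched an Ensembl identifier of the count tables, and they are 10 of 52636 genes listed and 10 of the 21371 genes that passed the filter on low counts. The libraries came from the L3 to L6 ganglia of 16 male C57Bl6/J mice aged 3 to 4 months, 1 mouse per library. Mice had either tibial spared nerve injury (SNI) or sham surgery of the left hindleg, and then received desipramine (DMI), a tricyclic antidepressant, at 15 mg/kg i.p. or saline, 2 times per day for 3 weeks. The groups were Sham-Saline (sham surgery, saline), SNI-Saline (nerve injury, saline), Sham-DMI (sham surgery, desipramine) and SNI-DMI (nerve injury, desipramine), with 4 mice each and no transgene or deletion in any of them. By the labels and by the study's abstract and results, treatment began at 4 weeks from surgery, whereas a sentence of its methods names a longer wait. The side from which ganglia were taken is not given in the sources used here.

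Somatosensory neurons of the DRG are divided into classes that sense pain and itch, touch, and body position, and each class is set up by a hierarchy of transcription factors. Isl1, a LIM homeodomain protein, and Pou4f1 (Brn3a), a POU homeodomain protein, are shared by nearly all of these neurons, where they end the neurogenic programme and open the programmes of the classes. The class factors act after them: Prrxl1 and Runx1 in nociceptors, Runx3 and Etv1 in proprioceptors, and Maf and Shox2 in touch neurons. Many of these genes stay on in the adult ganglion, and their products bind the regulatory regions of receptors and channels by which the classes are told apart. Runx1 and Maf are not particular to neurons, since macrophages and other blood cells also make them.

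Each library held 41194238 to 73920332 reads on genes, and the 10 genes had 559 to 14837 counts in each library. The 12 pan-neuronal markers, such as Tubb3 and Snap25, had a mean log2 CPM (counts scaled to the library total) of 10.02 to 10.28 in all 16 libraries, with none of the 12 at 0. The labels call the tissue spinal cord and the cell type dorsal root ganglia. The 4 markers of spinal motor neurons had a summed level of only 1.75 to 4.95 CPM, and the 5 oligodendrocyte markers 2.55 to 25.8 CPM. With saline, Atf3, a marker of injured neurons, had means of 10.5 ± 2.16 CPM in sham mice and 52.4 ± 1.6 CPM in injured mice, against 16.9 ± 5.11 and 55.2 ± 18.3 CPM with desipramine (SD, n = 4 each). The 4 skeletal muscle markers stood apart in Sham-Saline 1, SNI-Saline 2, SNI-Saline 4 and SNI-DMI 2, with a mean log2 CPM of 1.39 to 5.29 against -2.29 to -0.03 in the other 12 libraries. Saline libraries carry the numbers 33 to 40 and desipramine libraries 17 to 24, with each group in an unbroken run, so that effects of group and of library order cannot be told apart. In these whole ganglia, fewer neurons of a class and less RNA per neuron cannot be told apart either.

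Promoters from RefSeq on GRCm38.p6, each 250 bases before and 50 after a transcription start, were matched by symbol for 8 of the 10 genes, and no entry was matched for Pou4f3 and Maf. They were searched on both strands for the RUNX motif TGTGGT (in 16.8% of all 32851 promoters), the homeodomain palindrome TAATTA (5.29%), the AP-1 motif TGANTCA (7.81%), the CRE TGACGTCA (1.79%), the E-box CAGCTG (16.3%) and the GC box GGGCGG (35.7%). The distal promoters of both Runx genes held 2 RUNX motifs each, spaced by 2 bases. The paired form ACCACANNACCACA, which was looked for after these matches were seen, was in 7 of the 32851 promoters (0.0213%), and 2 of the 7 were those of Runx1 and Runx3. The 30 bases around it are shown because both distal promoters of this pair of paralogs hold the paired form, with the motif in capitals. In Runx1 (chr16:92826025-92826054, minus strand) they run from 21 to 50 bases after the start, and in Runx3 (chr4:135120503-135120532, plus strand) from 142 to 113 bases before it.
Runx1: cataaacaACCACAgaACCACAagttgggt
Runx3: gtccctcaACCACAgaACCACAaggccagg

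The 250 bases before the start of Pou4f2 (chr8:78436648-78436897, minus strand) are shown beside those of the distal Runx3 promoter (chr4:135120395-135120644, plus strand), because Pou4f2 was one of the factors whose mRNA fell after injury. Capitals mark 5 matches of the GC box in Pou4f2, the last 2 of which overlap, and the paired RUNX motif in Runx3. The GC box also had 2 matches in Pou4f1, 1 in Shox2 and 3 in the other Runx3 promoter, factors that did not pass after injury. It had none in either promoter of Runx1, which fell. Etv1 and Prrxl1 held 1 RUNX motif each, and Isl1 and Pou4f1 held 1 E-box each.
Pou4f2: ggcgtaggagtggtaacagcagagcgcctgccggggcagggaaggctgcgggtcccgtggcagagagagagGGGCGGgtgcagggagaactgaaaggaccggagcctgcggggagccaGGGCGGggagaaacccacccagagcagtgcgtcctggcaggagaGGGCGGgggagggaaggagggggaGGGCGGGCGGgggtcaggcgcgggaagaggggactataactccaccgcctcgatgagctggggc
Runx3: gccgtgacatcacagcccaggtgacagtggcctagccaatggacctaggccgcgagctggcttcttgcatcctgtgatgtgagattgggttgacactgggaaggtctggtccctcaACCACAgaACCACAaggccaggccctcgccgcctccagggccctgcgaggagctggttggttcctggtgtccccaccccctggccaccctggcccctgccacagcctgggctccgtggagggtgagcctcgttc
A match describes letters in a window and not a site in use.

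In the mouse genome (GRCm38, the assembly of mm10), Isl1 (ENSMUSG00000042258) lies at chr13:116298281-116309689 on the minus strand and Pou4f1 (ENSMUSG00000048349) at chr14:104461676-104467999, also on the minus strand. Its paralogs Pou4f2 (ENSMUSG00000031688) and Pou4f3 (ENSMUSG00000024497) lie at chr8:78433010-78436645 on the minus strand and chr18:42394539-42397249 on the plus strand. Prrxl1 (ENSMUSG00000041730) is at chr14:32599407-32649246, plus strand. Runx1 (ENSMUSG00000022952) spans chr16:92601466-92826149 on the minus strand, and Runx3 (ENSMUSG00000070691) spans chr4:135120652-135177990 on the plus strand. Etv1 (ENSMUSG00000004151) is at chr12:38779380-38870484 on the plus strand, Maf (ENSMUSG00000055435) at chr8:115682942-115707794 on the minus strand and Shox2 (ENSMUSG00000027833) at chr3:66971727-66981771 on the minus strand. A gene on the opposite strand shares 440 exon bases (5.3%) with Maf, 153 (4.6%) with Shox2 and 106 (0.9%) with Runx1. Whether the counting used strand is not given in the sources used here, so reads of those bases could belong to either gene.

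The levels of the 10 factors differed widely within Sham-Saline ganglia. Per kilobase of exon, Pou4f1 was the highest with a mean of 43.2 CPM per kb, followed by Prrxl1 with 31.0, Isl1 with 27.5 and Pou4f3 with 16.1. Lower levels were found for Maf with 9.23, Runx1 8.24, Etv1 7.93 and Shox2 6.24 CPM per kb, with Pou4f2 at 6.45 in the same range and Runx3 lowest at 2.38. Prrxl1 and Isl1 overlapped in their ranges over 4 mice, as did each pair of neighbours from Maf to Shox2. The other neighbours did not overlap, and Runx3 was 2.62 times lower than Shox2. Pou4f1 exceeded 93.9% of 21331 tested genes with an annotated exon length in mean CPM per kb over the 16 libraries, and Runx3 exceeded 47.8%. Pou4f1, Prrxl1, Isl1, Pou4f3 and Maf kept the first 5 places and Runx3 the last place in every group. Runx1 was in place 6 in Sham-Saline, Sham-DMI and SNI-DMI and in place 8 in SNI-Saline. Neighbours in places 6 to 8 of SNI-Saline overlapped in their ranges, with means of 6.86 for Etv1, 6.36 for Shox2 and 6.23 CPM per kb for Runx1.

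**Figure D1:**
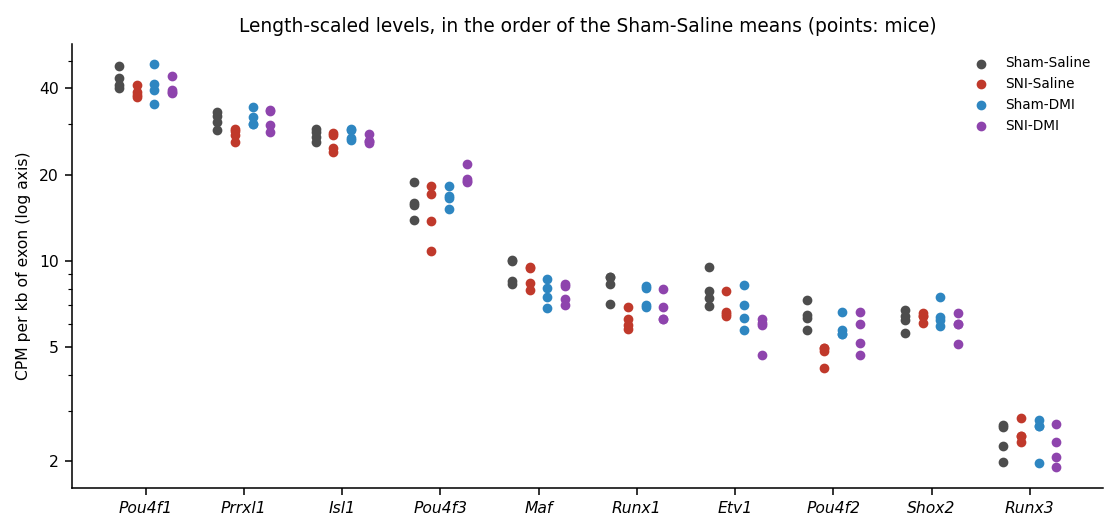
CPM per kb of exon (log axis) of each of the 10 factors, 1 point per mouse, coloured by group and ordered by the Sham-Saline means. Pou4f1 (43.2 CPM per kb in Sham-Saline) stands highest, Maf to Shox2 form an overlapping band, and Runx3 (2.38) stands below all others.

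The effect of nerve injury alone was read from SNI-Saline against Sham-Saline. Of these mRNAs, 2 fell: Pou4f2 by 26.4% and Runx1 by 24.4%, with no overlap between groups for either. None of the 10 rose, and Isl1 and Pou4f1, the factors shared by nearly all DRG neurons, did not pass the test. By edgeR's quasi-likelihood test with Benjamini-Hochberg adjustment over all 21371 genes, 2 of 10 factors passed at an adjusted p under 0.1, both lower, where 12.0% of all tested genes passed and 6.18% passed as lower. The groups did not overlap for 2 of 10 factors, and for 15.4% of all genes. The log2 fold change was below 0 for 8 of 10 factors, with a median of -0.13 against -0.001 over all genes.

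Runx1 drives the separation of non-peptidergic nociceptors from peptidergic ones. Its level was 106, 85.2, 99.96 and 106 CPM in the 4 Sham-Saline mice and 69.6, 71.7, 75.2 and 82.9 CPM in the 4 SNI-Saline mice. Every injured mouse was below the lowest sham mouse, with means of 74.9 ± 5.86 and 99.1 ± 9.63 CPM (SD, n = 4 each). The log2 fold change was -0.40 (SE 0.0862, adjusted p = 0.0174, edgeR). An exact two-sided permutation test of 4 against 4 gave p = 0.0286, the smallest it can give.

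Pou4f2 (Brn3b), a POU factor best known from retinal ganglion cells, is a paralog of Pou4f1. It stood at 20.1, 18.3, 20.8 and 23.4 CPM in Sham-Saline and at 15.9, 15.9, 15.5 and 13.5 CPM in SNI-Saline. The injured mice were again all below the sham mice, with means of 15.2 ± 1.13 and 20.7 ± 2.11 CPM (SD, n = 4 each). The log2 fold change was -0.44 (SE 0.103, adjusted p = 0.0239, edgeR, exact permutation p = 0.0286). Both calls were lost when the 4 libraries with muscle markers were left out, a choice made after seeing the data that leaves 3 sham and 2 injured mice: the log2 fold changes were then -0.417 for Runx1 (adjusted p = 0.158) and -0.403 for Pou4f2 (adjusted p = 0.252), and 0.192% of all genes passed. With trends of GC content and gene length removed, Runx1 was at -0.276 (adjusted p = 0.114) and Pou4f2 at -0.501 (adjusted p = 0.0211).

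Among the factors that did not pass, Prrxl1 was nearest. This paired homeodomain factor of nociceptors had 138, 119, 127 and 134 CPM in Sham-Saline and 114, 120, 108 and 119 CPM in SNI-Saline, with 3 of 4 injured mice below every sham mouse (log2 fold change -0.17, adjusted p = 0.133, edgeR). Its adjusted p was 0.0742 without Sham-Saline 2, 0.0956 without Sham-DMI 1 and 0.0699 in a fit to the 8 saline libraries alone.

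Pou4f1 had means of 181 ± 7.97 CPM in SNI-Saline and 202 ± 16.1 in Sham-Saline, and Isl1 103 ± 7.68 and 109 ± 4.78 (SD, n = 4 each), with adjusted p = 0.251 and 0.416 by edgeR. Pou4f3 (Brn3c), the paralog best known from inner ear hair cells, spread widely within the injured group: 40.98, 43.7, 26.0 and 33.1 CPM, against 33.5, 37.4, 38.2 and 45.4 CPM in Sham-Saline (adjusted p = 0.669, edgeR). The ranges of the groups overlapped for all 3.

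Of the factors of large neurons, Runx3, which directs neurons to the proprioceptor fate, had means of 12.6 ± 1.08 CPM after injury and 11.9 ± 1.63 in Sham-Saline. Etv1, an ETS factor that proprioceptors need for their spinal connections, had 91.2 ± 8.84 and 105 ± 14.7. Maf, a leucine zipper factor of rapidly adapting touch neurons, had 72.4 ± 6.58 and 76.0 ± 8.0, and Shox2, a homeodomain factor of TrkB touch neurons, 21.1 ± 0.667 and 20.7 ± 1.62 CPM (SD, n = 4 each). None of these 4 passed, with adjusted p between 0.286 for Etv1 and 0.885 for Shox2 by edgeR, and every pair of groups overlapped.

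**Figure D2:**
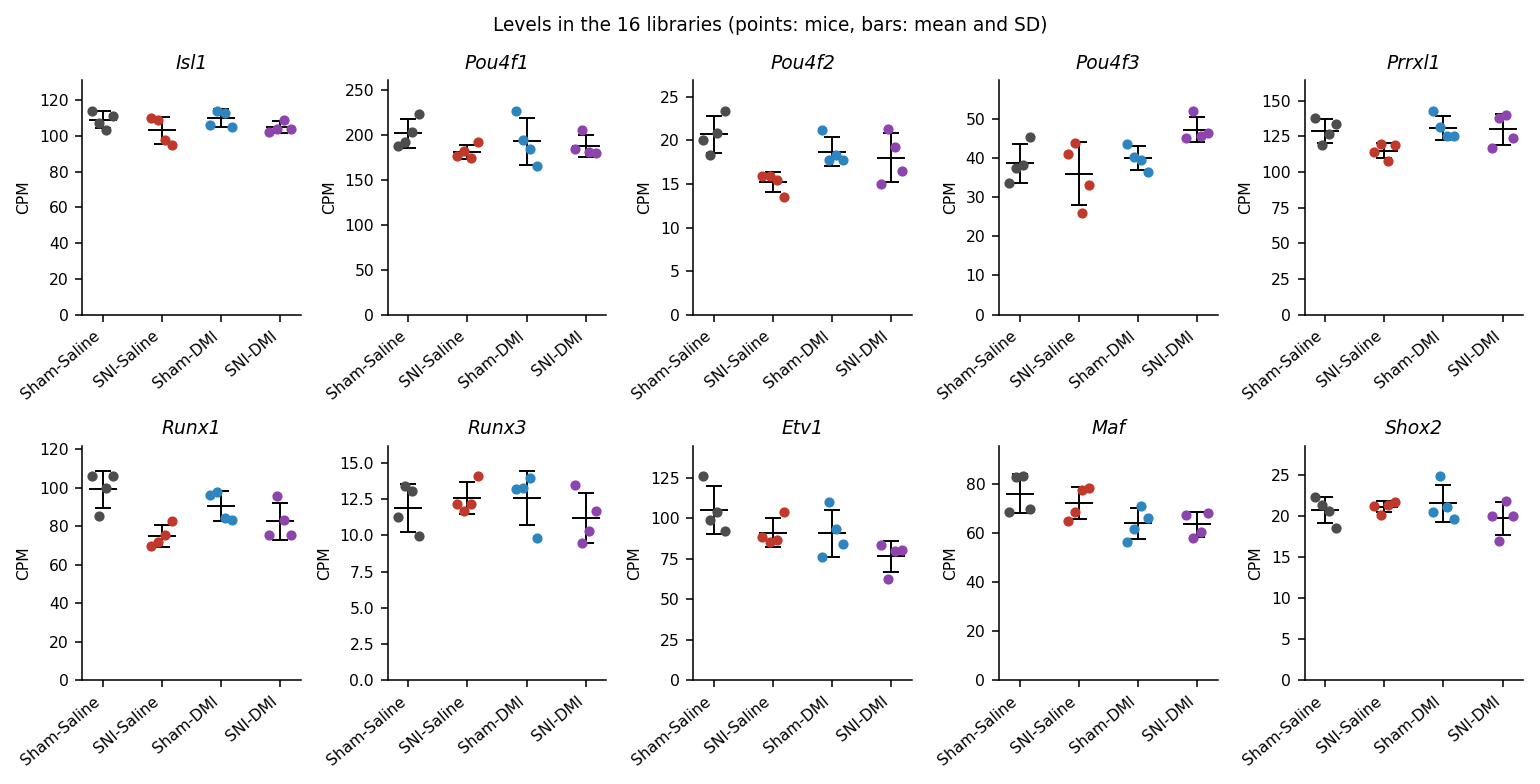
CPM of each factor in each of the 16 mice (points) by group, with the group mean and SD (black bars), each panel starting at 0. All 4 SNI-Saline mice lie below the 4 Sham-Saline mice for Pou4f2 and Runx1, and all 4 SNI-DMI mice lie above the SNI-Saline mice for Pou4f3.

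Both Runx factors can be compared within each mouse. The ratio of Runx1 CPM to Runx3 CPM ran from 6.37 to 10.6 in Sham-Saline and from 5.69 to 6.15 in SNI-Saline, so that these groups did not overlap. It ran from 6.05 to 8.45 in Sham-DMI and from 5.59 to 10.1 in SNI-DMI, which overlapped each other, Sham-Saline and SNI-Saline. The means were 8.5 ± 1.88, 5.96 ± 0.225, 7.29 ± 0.982 and 7.55 ± 1.97 (SD, n = 4 each, in the order Sham-Saline, SNI-Saline, Sham-DMI, SNI-DMI). The ratio was calculated after the fold changes of both genes were known.

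Genes by which sensory neuron classes are recognised were taken from lists of known class genes. Among 8 genes of non-peptidergic nociceptors, 4 fell after injury, where 6.18% of all genes did, and none rose (median log2 fold change -0.26). Mrgprd, the itch and pain receptor that defines the class, fell from 207 ± 30.0 to 141 ± 13.0 CPM (log2 fold change -0.56, adjusted p = 0.0138, edgeR). Plxnc1, a semaphorin receptor, fell by 0.40 on the log2 scale, Gfra2, the neurturin receptor, by 0.31 and Scn11a, the sodium channel Nav1.9, by 0.26. None of 6 peptidergic genes passed (median log2 fold change 0.14).

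In each list of the mechanosensory classes 1 gene passed, where 12.0% of all genes did. One of 6 touch neuron genes fell, the BDNF receptor Ntrk2 (log2 fold change -0.27, adjusted p = 0.0353, edgeR). One of 6 proprioceptor genes rose, Spp1, which encodes osteopontin (0.41, adjusted p = 0.0898), whereas Ntrk3, the NT-3 receptor, was at -0.34 (adjusted p = 0.154) and Pvalb, the calcium buffer parvalbumin, at 0.28 (adjusted p = 0.179). Of 5 genes of C-fibre touch neurons, Gfra2 again was the 1 that fell, and Th, tyrosine hydroxylase, was at -0.02 (adjusted p = 0.947). Among the 12 pan-neuronal genes 2 rose, Tubb3 by 0.21 and Stmn2 by 0.23, and 2 fell, Elavl4 by 0.20 and Scn9a by 0.43 on the log2 scale. All 8 macrophage markers had a log2 fold change above 0 after injury, 3 of them past the test, with a median of 0.39. Their summed level was 91.6 to 159 CPM against 76.5 to 89.0 CPM. All 7 Schwann cell markers were also above 0 (median 0.26), with none past the test. Whether either cell type had a part in the levels of the 10 factors or of class genes such as Spp1 was not tested.

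**Figure D3:**
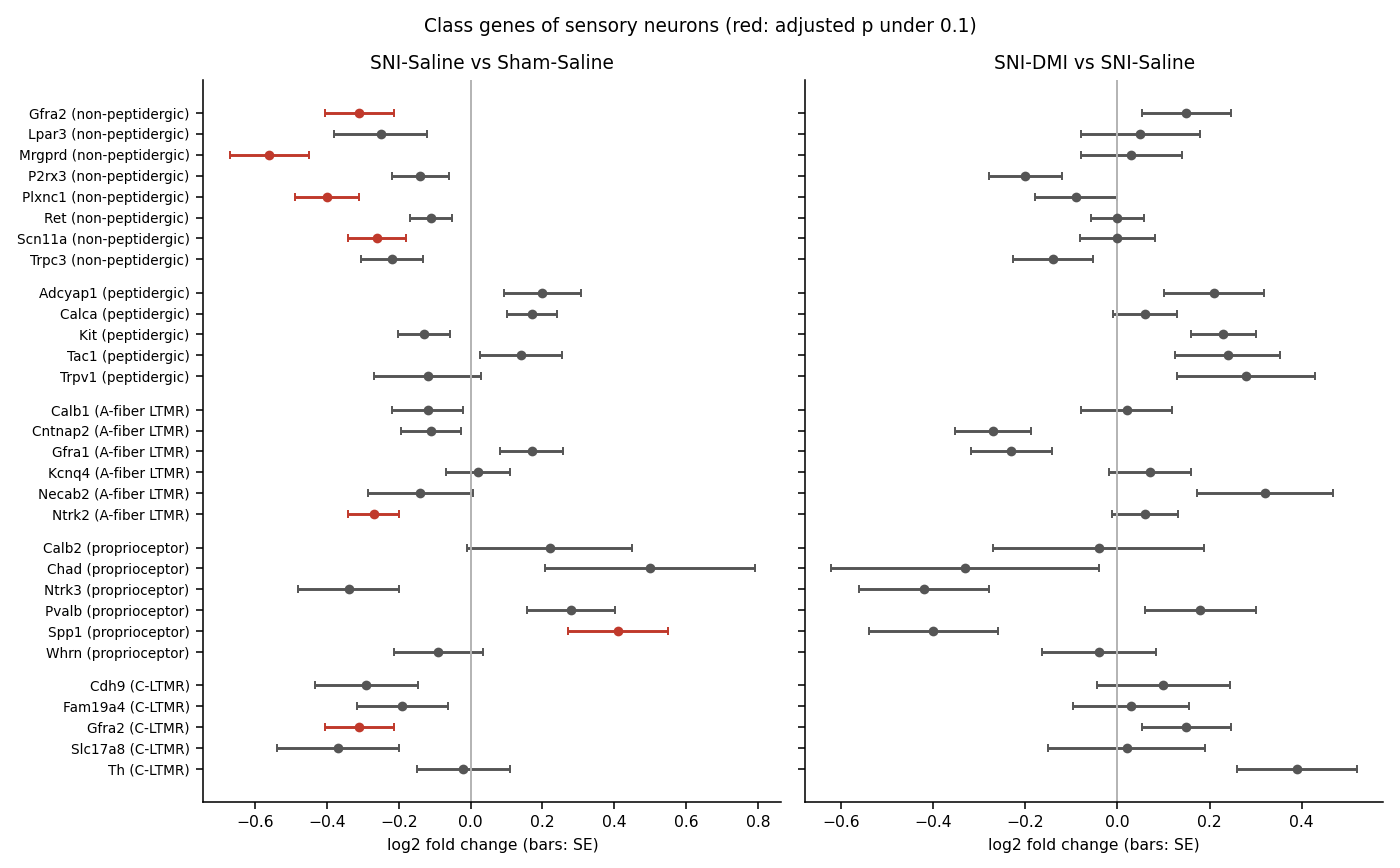
Log2 fold change (points) and SE (bars) of class genes of sensory neurons after injury (left) and with desipramine in injured mice (right), red where the adjusted p was under 0.1. On the left 4 of 8 non-peptidergic genes (of which Gfra2 is drawn again among the C-LTMR genes), Ntrk2 and Spp1 are red, and on the right none is.

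Other transcription factors of the sensory lineage and the cofactors of the 10 gave a similar mix. Of 26 tested factors in the first list, 1 rose and 5 fell after injury (median -0.11). Over all genes, 12.0% passed in this comparison and 6.18% passed as lower. Those that fell included the homeodomain factors Six4 and Onecut2, by 0.33 and 0.38 on the log2 scale, the Krüppel-like factor Klf7, by 0.38, and the zinc finger factor Zfp521, by 0.29. Sox11, an SRY-box factor of growing neurons, rose by 0.43 (adjusted p = 0.0516, edgeR). Of 14 cofactors, 1 rose and 3 fell (median -0.02): the LIM-only gene Lmo1 rose by 0.35, the LIM-binding gene Ldb2 fell by 0.26, the Groucho corepressor Tle4 by 0.17 and the corepressor Runx1t1 by 0.35. Cbfb, which encodes the shared binding partner of both Runx proteins, was at 181 ± 10.9 CPM in SNI-Saline and 197 ± 4.07 in Sham-Saline (log2 fold change -0.12, adjusted p = 0.201, edgeR). Its groups did not overlap, as was the case for 15.4% of all genes.

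The effect of desipramine in injured mice was read from SNI-DMI against SNI-Saline, which shares the SNI-Saline mice with the comparison above. No factor passed the adjusted p of 0.1, where 2.93% of all genes did. At a nominal p under 0.05 there were 5 of 10 factors (18.5% of all genes): Pou4f3, Prrxl1 and Pou4f2 with levels above SNI-Saline, and Etv1 and Maf with levels below. DESeq2 gave 1 of 10 factors at an adjusted p under 0.1, Pou4f3, where it gave 1859 of all 38220 genes with a count (4.86%). That total includes genes that did not pass the filter on low counts, which all 10 factors passed. The groups did not overlap for 2 of 10 factors, Pou4f3 and Etv1, and for 13.3% of all genes.

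Pou4f3 differed most. The 4 SNI-DMI mice had 45.0, 52.0, 45.5 and 46.3 CPM and the 4 SNI-Saline mice 40.98, 43.7, 26.0 and 33.1 CPM. All treated mice were above all untreated ones, with means of 47.2 ± 3.23 and 35.9 ± 8.04 CPM (SD, n = 4 each). The log2 fold change was 0.39 (SE 0.123, adjusted p = 0.115 by edgeR, exact permutation p = 0.0286). It met the study's own cut-offs, a log2 fold change of 0.32 or more in either direction with a nominal p under 0.05, as did 5.73% of all genes. The adjusted p was 0.0414 by DESeq2, 0.0668 with no filter on low counts, 0.0652 without SNI-Saline 2 and 0.0796 without Sham-DMI 1.

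Etv1 went the other way, with 83.4, 62.3, 79.6 and 80.4 CPM in SNI-DMI and 88.4, 85.6, 86.4 and 104 CPM in SNI-Saline. The groups did not overlap, although SNI-DMI 1 came within a few CPM of the untreated mice (log2 fold change -0.26, SE 0.115, adjusted p = 0.245, edgeR, exact permutation p = 0.0286). The log2 fold change was -0.09 without the 4 libraries with muscle markers, SNI-DMI 2 among them, and -0.068 with trends of GC content and length removed.

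Pou4f2 stood at 15.0, 21.3, 19.3 and 16.5 CPM in SNI-DMI, 3 of 4 above the highest SNI-Saline mouse (log2 fold change 0.25, adjusted p = 0.206, edgeR). Prrxl1 had 117, 138, 140 and 124 CPM, again 3 of 4 above every SNI-Saline mouse (0.17, adjusted p = 0.172). Runx1 had 75.4, 95.8, 83.1 and 75.5 CPM, 2 of 4 above every SNI-Saline mouse (0.14, adjusted p = 0.398). Maf was at a mean of 63.5 ± 5.06 against 72.4 ± 6.58 CPM (log2 fold change -0.19, adjusted p = 0.244, edgeR). Isl1, Pou4f1, Runx3 and Shox2 had log2 fold changes of 0.02, 0.05, -0.16 and -0.10, with adjusted p from 0.516 to 0.852 by edgeR. None of the 26 other factors, 14 cofactors, 12 pan-neuronal genes and class genes passed in this comparison. Mrgprd was at 143 ± 21.5 CPM with desipramine and 141 ± 13.0 without, whereas Ntrk3 had a log2 fold change of -0.42 (adjusted p = 0.13) and Th of 0.39 (adjusted p = 0.127, edgeR).

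**Figure D4:**
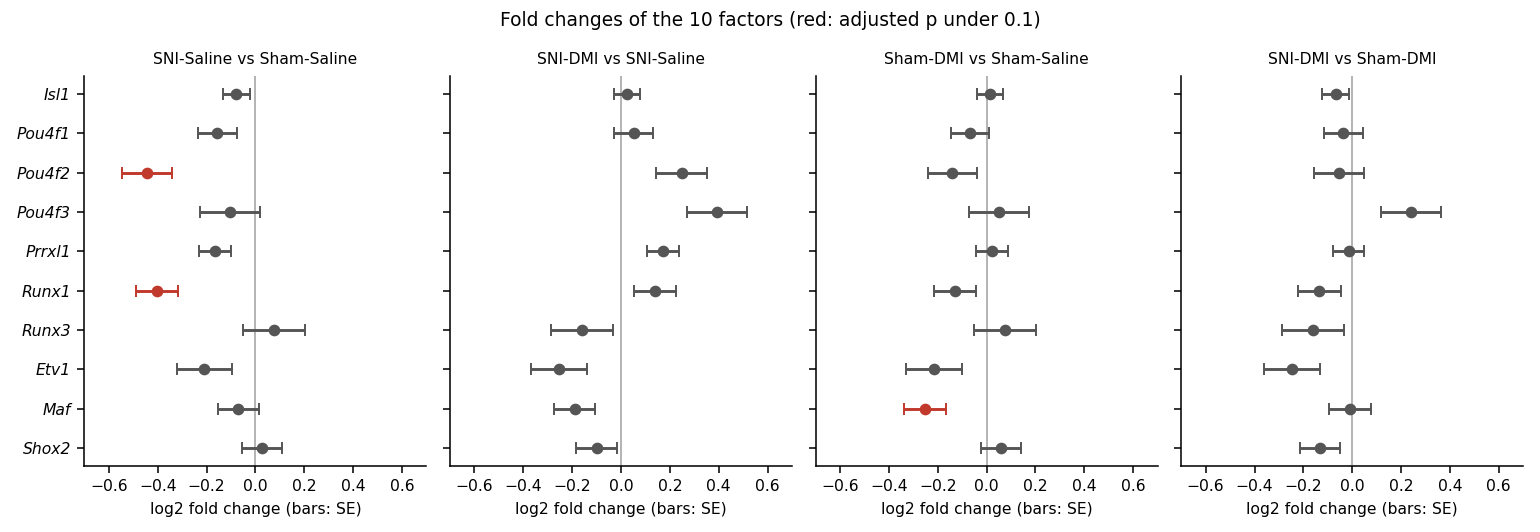
Log2 fold change (points) and SE (bars) of the 10 factors in the 4 comparisons of groups, red where the adjusted p was under 0.1. Pou4f2 and Runx1 are red after injury and Maf with desipramine in sham mice, and no factor is red in either comparison with SNI-DMI.

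In sham-operated mice, desipramine was compared as Sham-DMI against Sham-Saline, a comparison that shares its Sham-Saline mice with that of injury. Maf fell by 16.1%, and no other factor passed. This was 1 of 10 factors, where 23.4% of all genes passed the same adjusted p under 0.1. The groups overlapped for all 10 factors, against no overlap for 17.1% of all genes.

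Maf had 56.5, 61.8, 71.0 and 66.2 CPM in Sham-DMI and 68.4, 82.7, 83.2 and 69.9 CPM in Sham-Saline. One treated mouse, Sham-DMI 3, lay within the range of the untreated mice, and the means were 63.9 ± 6.16 and 76.0 ± 8.0 CPM (SD, n = 4 each). The log2 fold change was -0.25 (SE 0.0853, adjusted p = 0.0507, edgeR), and the exact permutation p was 0.0857. The adjusted p was 0.134 without Sham-Saline 2, 0.212 without Sham-Saline 3, 0.158 without Sham-DMI 1, 0.115 without Sham-DMI 2 and 0.279 with trends of GC content and length removed (log2 fold change -0.146).

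Etv1 had means of 90.7 ± 14.5 CPM in Sham-DMI and 105 ± 14.7 in Sham-Saline (adjusted p = 0.212), Runx1 90.5 ± 7.72 and 99.1 ± 9.63 (0.328) and Pou4f2 18.7 ± 1.66 and 20.7 ± 2.11 (0.382; SD, n = 4 each, adjusted p by edgeR). The other 6 had log2 fold changes from -0.07 to 0.08. Of the class genes, Ntrk2 fell by 0.30 (adjusted p = 0.00896) and Ntrk3 by 0.46 (adjusted p = 0.0326), and Pvalb rose by 0.54 on the log2 scale (adjusted p = 0.00752, edgeR). In this comparison 23.4% of all genes passed. By list, 1 of 8 non-peptidergic genes fell and none rose, with all 8 log2 fold changes below 0 (median -0.12). Among 6 peptidergic genes 1 rose, among 6 proprioceptor genes 2 rose and 1 fell, and among 6 touch neuron genes 1 fell. None of 5 genes of C-fibre touch neurons passed. Of the other 26 factors 5 fell and none rose, and Cbfb fell by 0.22 (adjusted p = 0.0155). Of the 12 pan-neuronal genes 5 rose and 1 fell, and with libraries scaled to the pan-neuronal list the log2 fold change of Maf was -0.339 (adjusted p = 0.025) and that of Etv1 was -0.297 (adjusted p = 0.0585). Of the 6 markers of injured neurons, 5 rose and none fell (median log2 fold change 0.97, against 2.74 after injury with saline). Their mean log2 CPM was 3.16 to 4.3 in Sham-DMI and 2.13 to 3.13 in Sham-Saline. All 7 tested neutrophil markers fell, with a summed level of 3.85 to 16.1 CPM against 10.4 to 38.9 CPM. All 8 macrophage markers had a log2 fold change below 0, 2 of them past the test, with a median log2 fold change of -0.26. Their mean log2 CPM was 2.32 to 2.72 in Sham-DMI and 2.73 to 2.98 in Sham-Saline, without overlap, and their summed level was 60.5 to 81.3 CPM against 76.5 to 89.0 CPM. Whether either cell type had a part in the level of Maf was not tested.

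With desipramine in both groups, SNI-DMI was compared with Sham-DMI, groups that each also enter a comparison with saline. No factor passed the adjusted p of 0.1, which 0.402% of all genes did. At a nominal p under 0.05 there was 1 of 10 (12.1% of all genes), Etv1, with a log2 fold change of -0.25 (adjusted p = 0.398), and DESeq2 gave none at an adjusted p under 0.1. Pou4f3 was the 1 factor of 10 whose groups did not overlap (5.04% of all genes), with a lowest SNI-DMI mouse of 45.0 CPM and a highest Sham-DMI mouse of 43.6 CPM (log2 fold change 0.24, adjusted p = 0.45, exact permutation p = 0.0286). Pou4f2 had means of 18.04 ± 2.81 and 18.7 ± 1.66 CPM and Runx1 82.5 ± 9.62 and 90.5 ± 7.72 CPM (SD, n = 4 each, adjusted p = 0.866 and 0.554, edgeR). Fold changes of 9 of 10 factors were below 0, with a median of -0.061 against 0.001 over all genes.

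Whether the effect of desipramine differed between injured and sham mice was tested as an interaction. No factor and 0 of 21371 genes passed the adjusted p of 0.1 (0.0%) by edgeR, 1692 genes (7.92%) had a nominal p under 0.05, and DESeq2 gave 16 genes at an adjusted p under 0.1, none of the 10 factors among them. Under the nominal p of 0.05 were 2 factors. Pou4f2 was 0.25 higher with desipramine in injured mice and 0.14 lower in sham mice on the log2 scale, a difference of 0.39 (SE 0.145, adjusted p = 0.619, edgeR). Runx1 was 0.14 higher and 0.13 lower, a difference of 0.27 (SE 0.122, adjusted p = 0.619, edgeR). That Pou4f2 and Runx1 passed after injury with saline and not with desipramine is therefore not shown to be a difference between the treatments.

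The deviations of the 10 factors from their group means were set side by side over the mice. After group means were removed, the log2 levels of Runx1, Prrxl1, Pou4f1, Pou4f2 and Pou4f3 were positively correlated with each other in all 10 pairs (Pearson r 0.08 to 0.75, 16 libraries), and those of Runx3, Etv1, Maf and Shox2 in all 6 pairs (0.16 to 0.83). Between both sets, 19 of 20 pairs were negative (r -0.77 to 0.09, median -0.39). The sets were formed after the correlations were seen and are given as a description. All points share the scaling of their library, its neuron content and its base composition.

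Etv1 and Shox2 were the most alike, with r = 0.83 and a Spearman rho of 0.83, and r = 0.74 without the 2 mice farthest from the median of Etv1. Prrxl1 and Runx1 had r = 0.75 (rho 0.74, and r = 0.73 without the 2 farthest). The most opposed pair was Prrxl1 and Maf, with r = -0.77 (rho -0.68, and r = -0.73 without the 2 farthest). Isl1 belonged to neither set, with 5 pairs above and 4 below 0. Without the 4 libraries with muscle markers, the pairs above 0 were 10 of 10 and 6 of 6 within the sets, and 17 of 20 were below 0 between them. Without SNI-DMI 2 alone, the counts were 9 of 10, 6 of 6 and 16 of 20. That mouse had the lowest Etv1 (62.3 CPM), Shox2 (16.9 CPM), Runx3 (9.51 CPM) and Maf (57.95 CPM) of its group. It also had the highest Pou4f1 (206 CPM), Pou4f2 (21.3 CPM), Pou4f3 (52.0 CPM) and Runx1 (95.8 CPM).

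**Figure D5:**
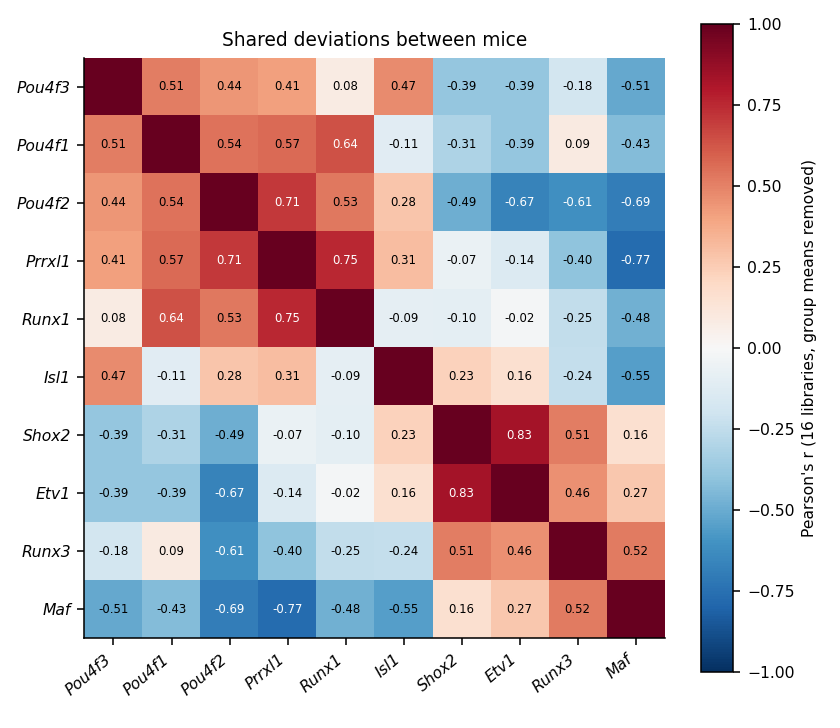
Pearson's r between the log2 CPM of each pair of factors over 16 libraries after removal of group means (red positive, blue negative, value in each cell). Runx1, Prrxl1 and the 3 Pou4f genes form one positive block, Shox2, Etv1, Runx3 and Maf another, and 19 of the 20 cells between the blocks are negative.

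Of 15750 genes with a mean of at least 1 CPM, those most like each factor in these deviations are given as a description. Each was picked as among the highest of all these genes, so the search itself raises its r. How high r would come out for unrelated genes was not tested. Runx3 was most like Tmem229b (r = 0.91), Slc17a7 (0.90), the vesicular glutamate transporter VGLUT1 of large afferents, and Scrt1 (0.87). Shox2 was most like Kcnc1 (0.92), a Kv3 potassium channel gene of fast-firing neurons, Slc38a1 (0.91) and Rgs6 (0.90), and the genes most like Pou4f2 included Adora1 (0.89) and Cpne8 (0.87). Runx1 was most like Rnf144a (0.94), Syt9 (0.94) and Nedd4l (0.93), a ubiquitin ligase gene. Pou4f1 had the closest match of all, at 0.96 each for Neurl1a, Palm and Cbx6, and Isl1 the weakest, at 0.86 for Scml4, 0.85 for Ago4 and 0.83 for Sybu. For Pou4f3 these were 6330403K07Rik (0.95), Rab3b (0.93) and Rprm (0.93), and for Prrxl1 Aacs (0.89), Acad10 (0.88) and Fbxo22 (0.88). For Etv1 they were Ppp1r7 (0.95), AI593442 (0.94) and Kitl (0.92), and for Maf Itga6 (0.95), Nipal1 (0.95) and Secisbp2l (0.94), over 16 libraries in each case.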

How the data were processed

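The authors made stranded mRNA libraries from the ganglia of 16 mice, sequenced paired reads of 50 bases and aligned them to mm10; the submitters' processing notes name HISAT2, HTSeq and DESeq2. The deposited values are whole-number counts per Ensembl gene, without normalization. Annotation release and strand setting are not given in the sources used here. The 5 closing lines of unassigned reads (18.83% to 20.44% of reads) were left out.

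Symbols, coordinates and exon lengths came from GENCODE M21 on GRCm38 (52489 of 52636 genes matched). Genes were kept by filterByExpr (21371), scaled by TMM and fitted with 1 coefficient per group by the quasi-likelihood test of edgeR 4.0.16 in R 4.3.3. Calls are at a Benjamini-Hochberg adjusted p under 0.1 over all genes. CPM use TMM library sizes, and log2 CPM a prior count of 2. Standard errors belong to fitted log2 fold changes. Groups of 4 mice were also compared by exact two-sided permutation on log2 CPM. Correlations used deviations from group means and are descriptions. The p-values measure the spread between mice, whose assignment to litters and cages is not given in the sources used here.

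Results were also computed in 10 other ways, upper-quartile and median-ratio scaling, no filter and a minimum of 10 counts in every library, the replicate number as a block, scaling to the pan-neuronal list, removal of trends with GC content and length (mgcv 1.9.3), edgeR on the 8 libraries of a contrast, DESeq2 1.42.0, and leaving out each library. Leaving out the 4 libraries with muscle markers was chosen after seeing the data. Deviations of same-numbered mice had r from -0.08 to 0.18 (median 0.0, over 0.1 in 5 of 24 pairs). Those of differently numbered mice had r from -0.25 to 0.17 (median 0.001, over 0.1 in 7 of 72). This does not decide whether replicate numbers pair mice, and the main fit treats them as unpaired. In a test on simulated data for SNI-Saline against Sham-Saline with 200 of 21371 genes changed, 78.0% were recovered and 8.24% of calls were false. All simulated fold changes were larger than that of any factor after injury, so the share recovered does not describe these factors. All 10 factors are named, together with every passing gene of the fixed lists in the first 2 comparisons (at most 5 per list and direction), the defining gene of each class and the 3 genes most like each factor, except that some of these genes, although counted, are not reported here. The factors and lists were chosen with earlier results of these data known. Values for Cbfb, for genes of the sham comparison and for marker lists were named after they were seen. Exact tests used scipy 1.17.1, tables pandas 2.3.3, and figures matplotlib 3.10.9 in python 3.11.15.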

Additional observations from a re-analysis of the deposited data

Results flagged for a closer look

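In 4 of the 40 sets of 4 mice (10 factors in 4 groups), 1 mouse stood far from the other three of its group by Dixon's gap test, past its 95% critical value; chance alone gives this in about 1 in 20 sets. SNI-DMI 2 had 206 CPM of Pou4f1, above the other mice of its group. SNI-Saline 4 had the lowest Pou4f2 of its group, at 13.5 CPM, and the highest Etv1, at 104 CPM. Sham-DMI 1 had 21.2 CPM of Pou4f2, above the other three. SNI-DMI 2 and SNI-Saline 4 are among the 4 libraries with muscle markers, and whether that has a part in these values was not tested.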

How the results depend on the processing

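Of 490 log2 fold changes under other settings, 459 kept their direction and side of the threshold, 5 lost a call, 4 gained one and 22 changed sign; with 1 library left out the numbers were 761, 4, 5 and 30 of 800. The number of factors called after injury was 1 with trends of GC content and length removed and 0 without the 4 libraries with muscle markers, which leaves fewer mice, against 2; it was 3 in the fit to 8 libraries, which added Prrxl1 (-0.163, adjusted p = 0.0699, edgeR), and 2 to 3 with 1 library left out. For desipramine in injured mice it was 1 with no filter and with DESeq2, against 0, and 0 to 1 with 1 library left out (1 without SNI-Saline 2 or Sham-DMI 1). For desipramine in sham mice it was 2 with libraries scaled to the pan-neuronal list, 0 with GC and length trends removed and 0 in the fit to 8 libraries, against 1, and 0 to 1 with 1 library left out (0 without Sham-Saline 2, Sham-Saline 3 or Sham-DMI 1; without Sham-DMI 2, Etv1 at -0.303 took the place of Maf). It was 0 under every setting in SNI-DMI against Sham-DMI and for the interaction. With a replicate block, 2, 0, 1, 0 and 0 factors were called in the 5 tests, as without it, and 2106, 172, 4739, 70 and 0 of all genes, against 2571, 626, 5010, 86 and 0; 7 of 16 libraries correlated best with one of their own number. The cause of these changes was not tested.

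The signs that changed belonged to factors that had not passed. Scaling to the pan-neuronal list, which moved the median of all genes from -0.021 to -0.101 in sham mice, gave Isl1 -0.07, Pou4f3 -0.038, Prrxl1 -0.059, Runx3 -0.015 and Shox2 -0.023 for desipramine in sham mice, Maf 0.04, Pou4f1 0.015 and Prrxl1 0.033 in SNI-DMI against Sham-DMI, Shox2 -0.000159 after injury and Etv1 0.033 for the interaction. With GC and length trends removed, Etv1 was at 0.014 and Shox2 at -0.021 after injury, Etv1 at 0.093, Pou4f3 at -0.032 and Runx1 at 0.037 for desipramine in sham mice, and Maf at 0.006 in SNI-DMI against Sham-DMI. Without the libraries with muscle markers, Etv1 was at 0.012 and Isl1 at -0.022 for the interaction and Maf at 0.039 in SNI-DMI against Sham-DMI. The interaction of Isl1 was -0.009 with upper-quartile scaling and -0.003 with median-ratio scaling and with DESeq2.

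With 1 library left out, the log2 fold change after injury ran from -0.202 to 0.024 for Pou4f3, -0.002 to 0.139 for Runx3 and -0.023 to 0.075 for Shox2. For desipramine it ran from -0.013 to 0.069 for Isl1 in injured mice, and in sham mice from -0.157 to 0.000269 for Pou4f1, -0.023 to 0.068 for Prrxl1 and -0.003 to 0.177 for Runx3. In SNI-DMI against Sham-DMI it ran from -0.062 to 0.034 for Maf, -0.104 to 0.054 for Pou4f1, -0.144 to 0.028 for Pou4f2 and -0.053 to 0.036 for Prrxl1, and for the interaction from -0.141 to 0.059 for Etv1 and -0.027 to 0.036 for Isl1.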
